A study of Mus musculus with 2 samples.

Results

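Costimulatory receptors and their ligands were examined as a group of 10 genes listed by name: Cd28, Icos, Cd226, Cd27, Tnfrsf4, Tnfrsf9, Cd40, Cd40lg, Tnfsf8 and Tnfsf11. All 10 were among the 32285 genes of the count matrices, and each had at least 1 count in both libraries. The libraries came from immune cells of liver tumors in male wild-type C57BL/6J mice, which entered the model at 6 to 8 weeks of age. In these mice hepatocellular carcinoma (HCC) was started by hydrodynamic injection of plasmids for MYC overexpression and Trp53 knockout together with sleeping beauty transposase (Trp53KO/MYCOE). From 12 days after the injection, all mice received lenvatinib, an inhibitor of receptor tyrosine kinases, at 30 mg/kg for 25 days, the point at which the model was taken as lenvatinib-resistant. The lenvatinib group then stayed on lenvatinib at 30 mg/kg, and the combo group received lenvatinib at 30 mg/kg and palbociclib, an inhibitor of CDK4 and CDK6, at 100 mg/kg. Live cells positive for CD45, the surface marker of immune cells, were sorted from tumors after a Percoll gradient and profiled by droplet-based 3′ single-cell RNA (scRNA) sequencing. There was 1 library per group, and the number of mice in each library is not given in the sources used here. MYC and the loss of Trp53 were shared by both groups, and neither an untreated library nor one of palbociclib alone was analysed here. Since cells of 1 library are not replicates, no test of a difference between the treatments was possible.

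A T cell needs a second signal beside its antigen receptor to be fully activated, and the genes described here encode molecules that give or receive it. CD28, ICOS and CD226 belong to the immunoglobulin superfamily and bind ligands on antigen-presenting or target cells. CD27, OX40 (encoded by Tnfrsf4), 4-1BB (Tnfrsf9) and CD40 belong to the tumor necrosis factor (TNF) receptor family and signal through TRAF adaptors to NF-κB, while CD40 ligand (Cd40lg), CD30 ligand (Tnfsf8) and RANKL (Tnfsf11) are TNF-family ligands that activated T cells carry. Regulatory T cells (Tregs), which express Foxp3, are known for high OX40, 4-1BB and ICOS within tumors.

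Gene positions are those of the GENCODE annotation of GRCm38 (mm10), the genome build of the files. Cd28 (ENSMUSG00000026012, chr1:60716800-60773359) and Icos (ENSMUSG00000026009, chr1:60977927-61000320) are neighbors on the plus strand, with 205 kb between the end of the first and the start of the second. Tnfrsf9 (ENSMUSG00000028965, chr4:150914562-150946102) and Tnfrsf4 (ENSMUSG00000029075, chr4:156013843-156016612) lie on the plus strand of the same chromosome, 5.07 Mb apart, and Tnfsf8 (ENSMUSG00000028362, chr4:63831308-63861347) lies on its minus strand. Cd40 (ENSMUSG00000017652) is at chr2:165055627-165072948 and Cd27 (ENSMUSG00000030336) at chr6:125232622-125237010. Tnfsf11 (ENSMUSG00000022015) is at chr14:78277445-78308043 and Cd40lg (ENSMUSG00000031132) at chrX:57212143-57224042. The method reads the 3′ end of polyadenylated RNA, so a count says nothing of which exons or isoforms were present.

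The promoters of Tnfrsf4 and Tnfrsf9 are shown because these receptors were both highest in Foxp3 cells, as described below, and 1 of them was also high in NK cells. The RefSeq promoter table of GRCm38.p6 held 5 of the 10 genes. The 250 bases before each listed start were searched on both strands for the AP-1 motif TGANTCA and for the NF-κB motif, 3 G, any 5 bases and 2 C or its reverse complement, and matches are in capitals.
Tnfrsf4 start, chr4:156013445-156013694, plus strand: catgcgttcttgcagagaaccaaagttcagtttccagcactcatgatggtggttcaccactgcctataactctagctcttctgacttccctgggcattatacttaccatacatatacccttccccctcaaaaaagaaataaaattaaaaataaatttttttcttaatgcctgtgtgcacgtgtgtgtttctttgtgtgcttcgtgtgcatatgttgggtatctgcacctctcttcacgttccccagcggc
Tnfrsf9, first of 2 listed starts, chr4:150919905-150920154, plus strand: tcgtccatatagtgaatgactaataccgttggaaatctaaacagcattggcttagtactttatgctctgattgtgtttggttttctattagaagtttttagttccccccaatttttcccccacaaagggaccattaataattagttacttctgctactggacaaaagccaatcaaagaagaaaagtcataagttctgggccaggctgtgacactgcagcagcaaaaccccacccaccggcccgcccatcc
Tnfrsf9, second listed start, chr4:150927749-150927998, plus strand: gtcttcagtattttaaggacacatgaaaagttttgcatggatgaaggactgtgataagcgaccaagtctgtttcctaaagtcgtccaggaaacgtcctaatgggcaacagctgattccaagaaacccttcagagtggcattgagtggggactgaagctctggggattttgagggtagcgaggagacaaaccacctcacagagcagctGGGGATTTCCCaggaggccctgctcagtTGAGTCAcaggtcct
Both Tnfrsf9 windows lie inside the gene as GENCODE annotates it. The second held 1 AP-1 match and 2 overlapping NF-κB matches, and the other 2 windows held none. Over 32851 RefSeq promoters of the same length, 6.75% held the AP-1 motif and 45.8% the NF-κB motif, so that the second match is common by its letters alone.

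The lenvatinib library held 14509 barcodes and 98107503 unique molecular identifiers (UMIs), and the combo library 11989 barcodes and 93583402 UMIs. Limits of 6000 genes and of 25% mitochondrial counts per cell left 14201 and 11613 cells, with median depths of 5541 and 5754 UMIs, and 49 barcodes occurred in both libraries. Cells were taken as CD8 T when they had a UMI of Cd3e and Cd8b1 (3237 in the lenvatinib library and 2500 in the combo library), as CD4 T with Cd3e and Cd4 but no Foxp3 (415 and 507), and as Foxp3 cells with any Foxp3 UMI (504 and 78). NK cells had Ncr1 and no Cd3e (2763 and 1243), B cells had Cd79a and Ms4a1 (466 and 557), and dendritic cells had Xcr1, Cd209a, or Ccr7 with Fscn1, beside at least 5 UMIs of H2-Ab1 and none of Cd79a (196 and 164). Cells that met more than 1 of these rules were left out (315 and 170). Levels are counts summed over the cells of a class and library, given as CPM, that is, scaled to the same total of UMIs in every class and library, with exact Poisson 95% intervals. All intervals here cover counting error only, not the spread between mice.

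Markers of other cells were also counted in these classes. The 5 neutrophil genes S100a8, S100a9, Csf3r, Retnlg and Cxcr2, none of them at 0 in any of the 6 classes, summed to between 219.9 and 4849.5 CPM in the lenvatinib library and to between 4202 and 24839.8 CPM in the combo library. They were higher under combo for 5 of 5 genes in every class but Foxp3 cells, with 4 of 5. With the granule genes of neutrophils taken out of the CPM total, all 48 ratios of the members stayed within their counting intervals. That step shifts all ratios of a class by the same small factor, from 0.00631 in dendritic to 0.044 in B cells as log2. Other effects of neutrophil RNA in these classes were not tested by it. The 10 mitosis genes were lower under combo for 10 of 10 genes in CD8 T, CD4 T, Foxp3 and NK cells, and in CD8 T cells they summed to 817 CPM under lenvatinib and 245 CPM under combo. In the dendritic class, the plasmacytoid genes Siglech and Ccr9 summed to 631 and 987 CPM, so this class was not free of plasmacytoid cells. Among Foxp3 cells, 388 of 504 and 49 of 78 had a Cd3e UMI, and the 4 T cell genes Cd3e, Cd3d, Cd3g and Trac summed to 2432 and 1831 CPM. CD4 T cells, which lack Foxp3 UMIs by definition, still held Ikzf2, a gene high in Tregs, at 443 and 108 CPM. The part of these differences in the results was not tested, except where a value without such cells is given.

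Levels of a T cell gene in cells that should lack it show the background of free RNA and of double droplets. Neutrophils, defined by Csf3r and at least 10 UMIs of S100a9 with no Cd3e (513 and 1402 cells), had Cd28 at 34.1 CPM under lenvatinib and 10.8 CPM under combo. Their median depths were 2704 and 5268 UMIs. Per neutrophil, Cd28 had 0.123 and 0.0856 UMIs. By CPM the background of Cd28 thus differed between the libraries. That of Icos, at 4.33 and 4.4 CPM, and of Cd27, at 12.4 and 15.7 CPM, had overlapping intervals. Values of B and dendritic cells near the neutrophil CPM of a gene are read below as background by that measure alone.

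**Figure D1:**
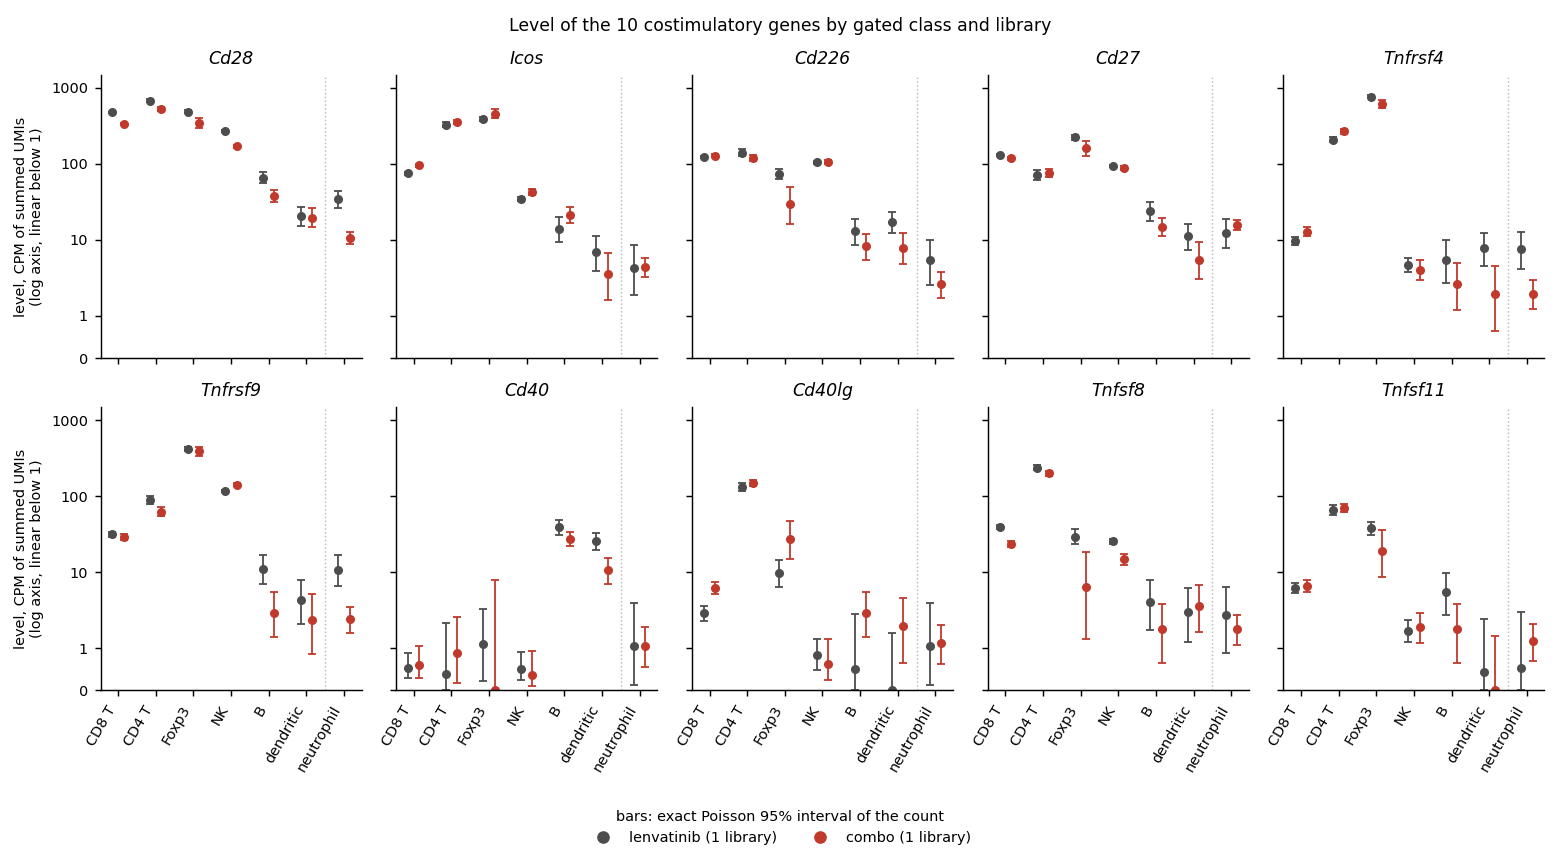
Level of each of the 10 genes (CPM of summed UMIs, log axis, linear below 1) in the 6 cell classes and in neutrophils, which serve as background, for the lenvatinib and the combo library. Points are single libraries and bars are exact Poisson 95% intervals; Tnfrsf4 reaches 769 CPM in Foxp3 cells under lenvatinib and stays at 12.9 CPM or less in CD8 T and NK cells of both libraries.

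A gene was called past the fold when its CPM differed between the libraries by 1.5 times or more and it had at least 25 counts over both libraries in that class. In CD8 T cells all 10 genes reached 25 counts, 1 was past the fold upward under combo (Cd40lg) and 1 downward (Tnfsf8), while among all 12827 genes counted there 9.93% were past it upward and 13.6% downward. In CD4 T cells none of 9 genes was past the fold in either direction, where 5.55% and 22.6% of all 9677 genes were. In Foxp3 cells 1 of 9 was past it upward (Cd40lg) and 3 downward (Cd226, Tnfsf8 and Tnfsf11), against 9.35% and 30.1% of all genes. In NK cells none of 9 was past it upward and 2 downward (Cd28 and Tnfsf8), against 10.1% and 14% of all genes. In B cells 1 of 6 was past it upward (Icos) and 4 downward (Cd28, Tnfrsf9, Cd27 and Cd226), against 7.8% and 35.7% of all genes. In dendritic cells none of 5 was past it upward and 4 downward (Icos, Cd27, Cd226 and Cd40), against 6.67% and 13.9% of all genes. The median ratio of combo to lenvatinib over the genes counted was 1.06 for the members and 0.921 for all genes in CD8 T cells, 1.06 and 0.853 in CD4 T cells, 0.72 and 0.848 in Foxp3 cells, and 0.951 and 0.921 in NK cells. The members past the fold, 2 of 10 in CD8 T cells and 2 of 9 in NK cells, were thus a share near that of all genes.

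**Figure D2:**
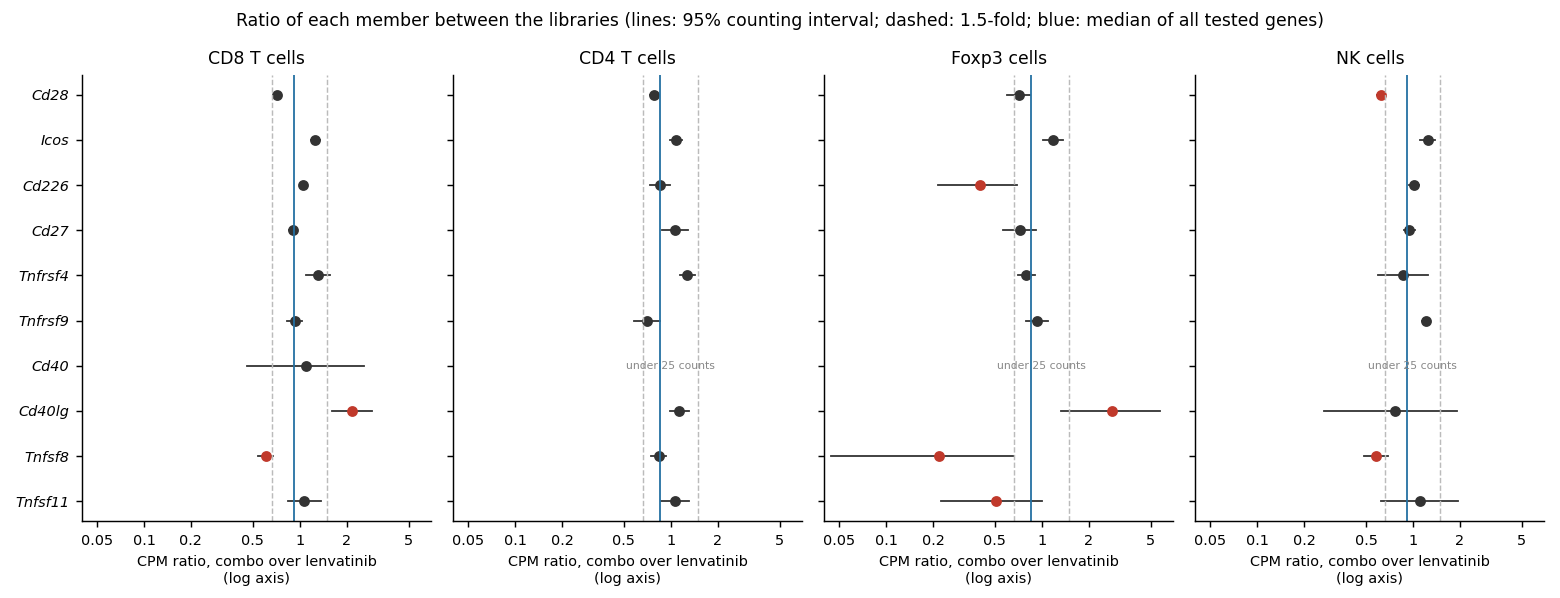
Ratio of CPM between the libraries (combo over lenvatinib, log axis) for each gene in CD8 T, CD4 T, Foxp3 and NK cells, with 95% counting intervals, dashed lines at 1.5-fold and a blue line at the median ratio of all genes counted. Cd28 lies between 0.624 and 0.782 in all 4 classes, and Tnfsf8 lies at 0.606 in CD8 T, 0.58 in NK and 0.218 in Foxp3 cells.

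Cd28 encodes the receptor for CD80 and CD86 and is the main costimulatory receptor of naive T cells. It was lower in the combo library in each T and NK class. In CD8 T cells its level was 477 CPM (95% interval, 469 to 485) under lenvatinib and 339.7 CPM (331 to 348) under combo, a ratio of 0.712 (0.691 to 0.734). In CD4 T cells it was 676 and 529 CPM, a ratio of 0.782 (0.732 to 0.836), and in Foxp3 cells 488 and 347 CPM, a ratio of 0.711 (0.600 to 0.837). These 3 ratios lay inside the 1.5-fold limit, and the intervals of both libraries were apart in each class. NK cells held Cd28 at 272.5 and 170.1 CPM, with a ratio of 0.624 (0.592 to 0.658) that was past it. Among all genes counted, 39.6% had a lower ratio than Cd28 in CD4 T cells and 35.2% in Foxp3 cells. The share was 18.7% in CD8 T cells and 9.86% in NK cells. The 4 T cell genes, with Cd3e at 0 by definition, summed to 124 and 123 CPM in NK cells, against 2160 and 2639 CPM in CD8 T cells.

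The order of classes for Cd28 was the same in both libraries, with CD4 T cells first, Foxp3 and CD8 T cells next with overlapping intervals, and then NK, B and dendritic cells. When each cell was thinned to 2000 UMIs, so that depth was equal, 58.2% of CD8 T cells (56.4 to 59.9) had a Cd28 UMI under lenvatinib and 46.8% (44.8 to 48.8) under combo. Without thinning, at median depths of 7319 and 5903 UMIs, the shares were 87.9% and 78.4%. The thinned shares in NK cells were 37.3% and 27.9%, and those in CD4 T cells were 65.3% and 62.7%, with overlapping intervals. In neutrophils they were 6.1% and 1.84%, far below. B cells, with 6.61% and 2.04%, stood at this neutrophil level by share. By CPM they lay above it, at 66.2 CPM (55.4 to 78.5) against 34.1 CPM (26.2 to 43.6) under lenvatinib and at 37.7 CPM (31.4 to 44.8) against 10.8 CPM (8.93 to 12.9) under combo, and how much of the Cd28 ratio of 0.569 in B cells is background was not tested. Over all alternatives of cell definition and scaling, the ratio ran from 0.68 to 0.737 in CD8 T cells, from 0.723 to 0.843 in CD4 T cells and from 0.61 to 0.694 in NK cells, where it was no longer past the fold with classes defined on thinned cells (0.694), with at least 2 UMIs of each defining gene (0.69) or with NK cells defined by Ncr1 and overlaps kept (0.673). In Foxp3 cells with a Cd3e UMI it was 0.961.

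Icos encodes the inducible costimulator, which is made after activation and supports helper and regulatory T cells. Its levels went the other way from Cd28, although the genes are neighbors. In CD8 T cells Icos was at 75.6 CPM (72.4 to 79.0) under lenvatinib and 95.5 CPM (91.0 to 100.03) under combo, a ratio of 1.26 (1.18 to 1.35). In NK cells it was at 34.5 and 42.9 CPM, a ratio of 1.24 (1.11 to 1.40). Both ratios stayed inside 1.5-fold with intervals apart. CD4 T cells had 330.1 and 358 CPM and Foxp3 cells 388 and 457 CPM, and in both classes the intervals of the libraries overlapped. The Foxp3 ratio, reported as 1.18, was past the fold at 1.65 with at least 2 UMIs of each defining gene, at 1.55 in cells with a Cd3e UMI and at 2.03 with classes defined on thinned cells. With at least 2 UMIs, the CD4 T ratio was 0.945 and the NK ratio 1.51. Foxp3 cells came first and CD4 T cells second in each library, in the order opposite to that of Cd28. Among thinned Foxp3 cells, 47.5% and 50% had an Icos UMI, and 41.1% and 44.5% of CD4 T cells did.

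Cd226 encodes DNAM-1, an activating receptor of T and NK cells that binds CD155 and competes with TIGIT for it. Its level hardly differed between the libraries in CD8 T cells, with 122 and 129 CPM and a ratio of 1.05, or in NK cells, with 105.5 and 107 CPM and a ratio of 1.01 (0.944 to 1.09). CD4 T cells had 140.6 and 119.5 CPM, with overlapping intervals. Foxp3 cells had the lowest level of the T and NK classes in both libraries, 74.1 CPM (64.1 to 85.2) under lenvatinib and 29.8 CPM (16.3 to 49.9) under combo. That ratio, 0.402, rested on 14 counts in 78 combo cells. It was 0.866 when cells that met several definitions were kept in. The 4 NK genes Ncr1, Klrb1c, Eomes and Klre1 were lower in Foxp3 cells of the combo library for 4 of 4, with a sum of 162 and 29.8 CPM and Eomes at 0 under combo. The Treg genes Foxp3, Il2ra, Ikzf2 and Ctla4 were lower for 3 of 4, with a sum of 3747 and 2333 CPM. The monocyte and macrophage genes Csf1r, Lyz2, Adgre1 and C1qa were higher for 2 of 4, with a sum of 407.6 and 2173 CPM. The part of these lists in the Foxp3 ratios was not tested.

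Cd27 encodes the receptor for CD70, present on naive and memory T cells and on part of the NK cells. It was highest in Foxp3 cells, with 225 CPM (207 to 243) under lenvatinib and 162 CPM (127 to 202) under combo, followed by CD8 T cells, with 131 and 118 CPM. The ratio was 0.72 (0.559 to 0.915) in Foxp3 cells and 0.904 (0.857 to 0.954) in CD8 T cells. NK cells, with 94 and 89.4 CPM, and CD4 T cells, with 72.2 and 76.6 CPM, differed between the libraries by less than their counting intervals. The thinned share of Foxp3 cells with a Cd27 UMI was 36.4% (31.9 to 41.1) and 22.6% (12.9 to 35.0), with overlap, and that of CD8 T cells was 22.8% and 22.5%.

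Tnfrsf4 encodes OX40, the receptor for OX40 ligand, and had its highest level in Foxp3 cells. These held 769 CPM (736 to 803) under lenvatinib and 610.2 CPM (542 to 685) under combo, CD4 T cells 209 CPM (192 to 228) and 267.5 CPM (250.3 to 286), and CD8 T cells 9.78 and 12.9 CPM. NK cells had 4.71 and 4.08 CPM, where neutrophils had 7.57 and 1.97 CPM, so that NK cells did not exceed the background under lenvatinib. Under combo they lay above it by value, with intervals that overlapped narrowly (2.98 to 5.46 and 1.24 to 2.99). The reported ratio was 0.794 (0.699 to 0.899) in Foxp3 cells, 1.28 (1.15 to 1.42) in CD4 T cells and 1.32 (1.10 to 1.57) in CD8 T cells, each inside 1.5-fold and each with intervals apart. The lenvatinib level of CD8 T cells (8.65 to 11.0) overlapped that of neutrophils (4.14 to 12.7). Among thinned cells, 69.7% and 59.7% of Foxp3 cells had a Tnfrsf4 UMI, and 25.7% (21.5 to 30.3) and 35.7% (31.5 to 40.1) of CD4 T cells. In Foxp3 cells with a Cd3e UMI the ratio was 1.12 (49 combo cells), and with classes defined on thinned cells it was 1.03 in Foxp3, 0.955 in CD4 T and 1.01 in CD8 T cells. With CD4 T cells defined by the absence of Ikzf2 and Il2ra as well, it was past the fold, at 1.89 in CD4 T cells and 1.52 in CD8 T cells, so the direction of Tnfrsf4 in Foxp3 and CD4 T cells and its size in CD8 T cells depended on how the cells were defined.

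Tnfrsf9 encodes 4-1BB, which activated T and NK cells display. Foxp3 cells again came first, with 415 and 387 CPM and a ratio of 0.933 (0.793 to 1.09). NK cells came second in both libraries, with 117 CPM (112 to 121) and 141 CPM (134.5 to 149) and a ratio of 1.21 (1.14 to 1.29). CD4 T cells had 89.1 CPM (78.0 to 101) and 62.6 CPM (54.4 to 71.6), a ratio of 0.702 (0.580 to 0.850) that was 0.537 with classes defined on thinned cells, and CD8 T cells had 31.5 and 29.2 CPM, a ratio of 0.928 (0.832 to 1.03). Over the alternatives, the CD8 T ratio ran from 0.793 to 1.12, the highest without cycling cells. The Foxp3 ratio ran from 0.896 to 1.35, the highest with a mean of CPM over cells. NK cells therefore had more Tnfrsf9 than CD8 T cells in each library. Tnfrsf4 was the other way round, with 4.71 and 4.08 CPM in NK cells and 9.78 and 12.9 CPM in CD8 T cells. The thinned shares were 46.8% and 40.3% of Foxp3 cells, 17.2% and 18.6% of NK cells and 5.14% and 5.03% of CD8 T cells, against 2.44% and 0.295% of neutrophils.

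Cd40, the receptor for CD40 ligand on antigen-presenting cells, was highest in other classes than the rest of the group. B cells had 39.1 CPM (30.9 to 48.8) under lenvatinib and 27.7 CPM (22.4 to 33.9) under combo, a ratio of 0.707 (0.518 to 0.968) inside 1.5-fold and with overlapping intervals. Dendritic cells had 25.8 CPM (19.7 to 33.2) and 10.7 CPM (7.02 to 15.5), a ratio of 0.413 (0.252 to 0.660) past the fold. Of the 60 Cd40 UMIs in lenvatinib dendritic cells, 16 sat in 50% of the 4 mature cells with Ccr7 and Fscn1, and the combo library had 1 such cell with none. In the Cd209a cells alone the ratio was 0.564 (0.310 to 1.001), without cells holding Siglech it was 0.508, and it was 0.978 with classes defined on cells thinned to 2000 UMIs. Monocytes and macrophages, defined by Csf1r and Lyz2 (180 and 651 cells), had 25.4 and 26.8 CPM, which did not differ beyond counting error. CD8 T cells had 0.541 and 0.597 CPM. Thinned shares were 9.79% and 6.32% of B cells and 0.222% and 0.0811% of CD8 T cells.

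**Figure D3:**
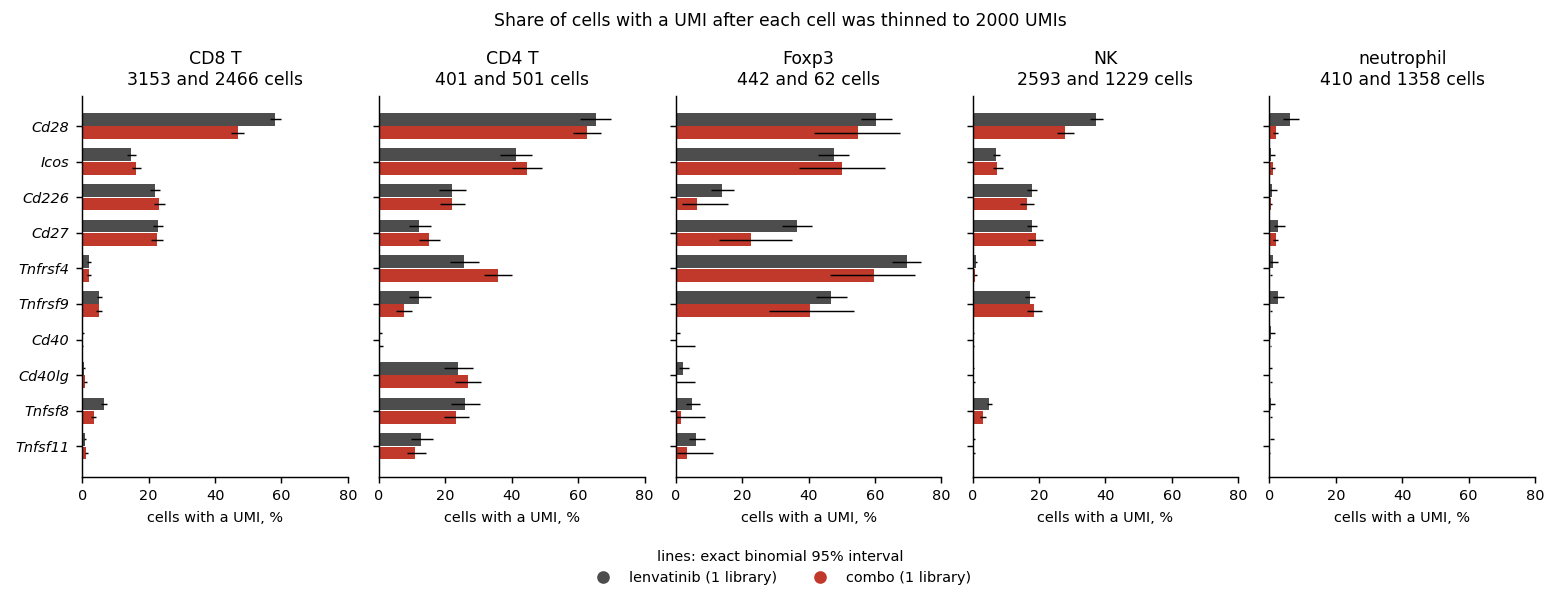
Share of cells with at least 1 UMI (percent) of each gene after every cell was thinned to 2000 UMIs, in CD8 T, CD4 T, Foxp3 and NK cells and in neutrophils as background, with exact binomial 95% intervals. The share with Cd28 is 58.2% and 46.8% in CD8 T cells, whereas Tnfrsf4 is found in 69.7% and 59.7% of Foxp3 cells and in 2% and 1.91% of CD8 T cells.

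Among the ligands, Cd40lg, whose product helper T cells use to license B cells and dendritic cells, marked the CD4 T class. Its level there was 132 CPM (119 to 147) under lenvatinib and 150.2 CPM (137 to 164) under combo, with overlapping intervals and a ratio of 1.14 (0.988 to 1.31), which was 1.6 with classes defined on thinned cells. The thinned shares were 23.7% and 26.7%. CD8 T cells had 2.89 CPM (2.29 to 3.59), from 80 counts, and 6.24 CPM (5.15 to 7.50), from 115 counts. The ratio, 2.16 (1.61 to 2.92), was past the fold. Among thinned CD8 T cells, 0.571% (0.339 to 0.901) and 0.973% (0.625 to 1.44) had a UMI, from 18 and 24 cells, with overlapping intervals. Thinned neutrophils had one in 0 of 410 cells under lenvatinib and in 0.221% under combo. The former allows a share of up to 0.732% by a limit of 3 counts and of 0.896% by the exact interval. Foxp3 cells had 9.78 and 27.6 CPM, a ratio of 2.83 (1.33 to 5.70) that rested on 26 and 13 counts. It was 4.69 in Foxp3 cells with a Cd3e UMI. In thinned combo Foxp3 cells, 0 of 62 had a Cd40lg UMI, which allows a share of up to 4.84% by the limit of 3 counts and of 5.78% by the exact interval. Without thinning, 6.41% of the 78 cells had one, so the 13 counts sat in 5 cells.

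Tnfsf8, the gene of CD30 ligand, was lower under combo in each T and NK class. CD4 T cells held the highest level, 238 CPM (219.8 to 258) under lenvatinib and 199.9 CPM (185 to 216) under combo, a ratio of 0.839 (0.751 to 0.937). In CD8 T cells it was at 39.1 CPM (36.8 to 41.5) and 23.7 CPM (21.5 to 26.0), a ratio of 0.606 (0.541 to 0.678), and in NK cells at 25.5 and 14.8 CPM, a ratio of 0.58 (0.484 to 0.692). Both were past the fold. Of all genes counted, 48.1% had a lower ratio than Tnfsf8 in CD4 T cells, where the median of all genes was 0.853. This share was 8.46% in CD8 T, 6.63% in NK and 1.78% in Foxp3 cells. Foxp3 cells had 29.3 CPM and 6.38 CPM, from 78 and 3 counts, a ratio of 0.218 (0.0439 to 0.660). That ratio was 0.475 with at least 2 UMIs asked of each defining gene and 0.119 in Foxp3 cells with a Cd3e UMI. With cells of several definitions kept in, the CD8 T ratio was 0.713 and the NK ratio 0.686, both no longer past the fold. Thinned shares in CD8 T cells were 6.6% (5.76 to 7.52) and 3.45% (2.76 to 4.24), and in neutrophils 0.488% and 0.221%.

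Tnfsf11 encodes RANKL, a ligand for RANK on dendritic cells and osteoclast precursors. It was highest in CD4 T cells, with 66.1 CPM (56.6 to 76.7) and 70.3 CPM (61.6 to 79.9), a ratio of 1.06 (0.870 to 1.30), which was past the fold at 1.76 with classes defined on thinned cells. Foxp3 cells had 37.6 and 19.1 CPM, from 100 and 9 counts, with overlapping intervals and a ratio of 0.509 (0.226 to 1.01). CD8 T cells had 6.13 and 6.57 CPM and NK cells 1.71 and 1.9 CPM. The 3 ligands thus shared CD4 T cells as their first class in both libraries, while Tnfrsf4, Tnfrsf9, Cd27 and Icos were each first in Foxp3 cells.

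CD8 T cells were next split by Pdcd1, the gene of the inhibitory receptor PD-1, which T cells carry after activation. A Pdcd1 UMI was found in 12.8% of CD8 T cells under lenvatinib (415 cells) and in 21.7% under combo (542 cells). The lower level of Cd28 under combo was seen in both subsets. Without Pdcd1 it was at 466 CPM (458 to 475) and 331 CPM (322 to 341), a ratio of 0.711, and with Pdcd1 at 555 CPM (531 to 581) and 370.5 CPM (352 to 389.9), a ratio of 0.667. Icos was at 71.8 and 87.7 CPM without Pdcd1, with intervals apart, and at 103 and 124 CPM with Pdcd1, with overlapping intervals.

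Several members differed between the subsets in both libraries alike. Tnfrsf4 was at 26.3 CPM under lenvatinib and 29 CPM under combo in cells with Pdcd1, against 7.42 and 8.44 CPM in cells without, 3.54 and 3.43 times as much. Tnfrsf9 was 2.7 and 2.2 times as high with Pdcd1 as without, Icos 1.43 and 1.41 times, Cd27 1.49 and 1.33 times and Cd28 1.19 and 1.12 times, all with intervals apart. For Cd226 the intervals were apart under lenvatinib, at 1.41 times, and overlapped under combo, at 1.07 times. Tnfsf8 had overlapping intervals in both libraries, at 1.11 and 0.987 times. Inside the cells with Pdcd1, the combo library had less Cd27 (184 and 147 CPM), less Cd226 (164 and 136 CPM), less Tnfrsf9 (70.2 and 51.1 CPM) and less Tnfsf8 (42.7 and 23.4 CPM), each with intervals apart. In the cells without Pdcd1, Cd226 was higher under combo, at 116 and 127 CPM with intervals apart, so its direction differed between the subsets, a difference that was not tested. Cd40lg in the cells with Pdcd1 was at 2.31 and 7.56 CPM, from 8 and 30 counts. Other genes also differed in these cells, with Tox at 431 and 207 CPM, Tcf7 at 132 and 72 CPM and Ikzf2 at 200 and 89.4 CPM. Pdcd1 itself was at 195 and 241 CPM and Il2ra at 11 and 11.3 CPM. The cells with Pdcd1 were thus not alike in the 2 libraries, and the part of this in the member levels was not tested. The share of all genes with intervals apart was not computed in this subset.

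**Figure D4:**
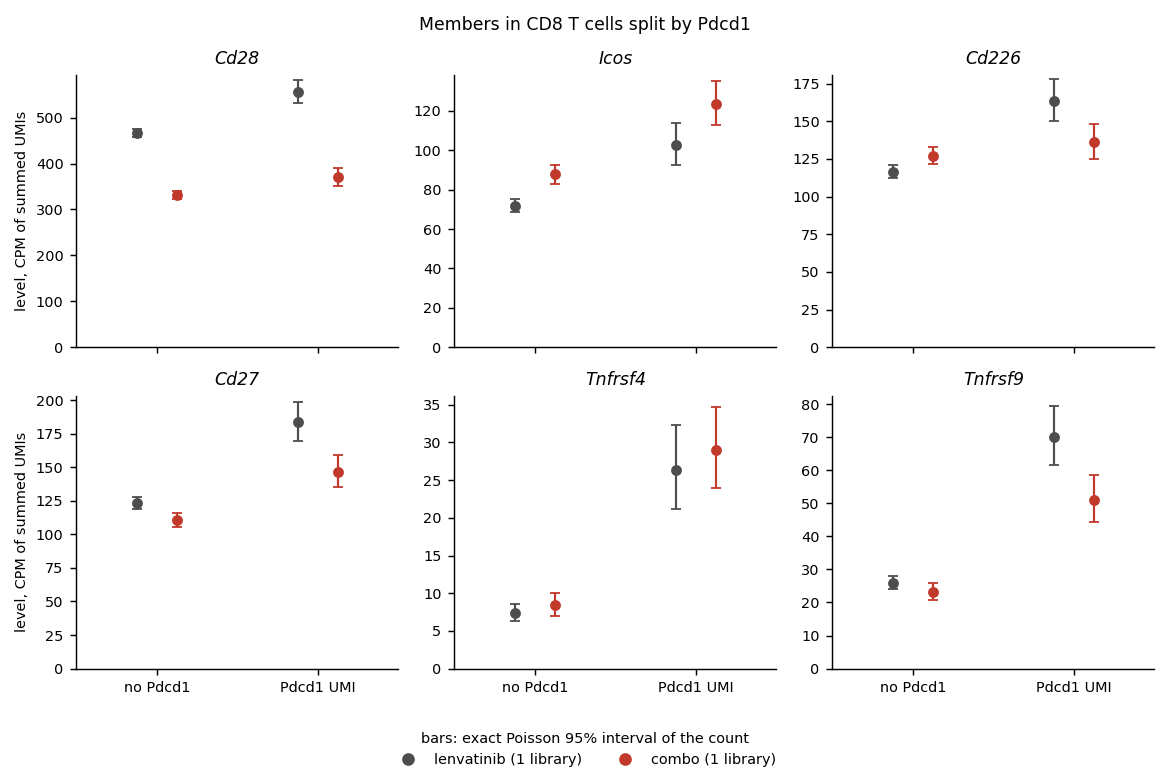
Level (CPM of summed UMIs) of 6 receptors in CD8 T cells without and with a Pdcd1 UMI, for each library, with exact Poisson 95% intervals. Cd28 is lower under combo in both subsets, at ratios of 0.711 and 0.667, and Tnfrsf4 and Tnfrsf9 are higher in cells with Pdcd1 in both libraries.

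CD4 T cells, although without a Foxp3 UMI, held Ikzf2 and Il2ra, and 51.3% of them under lenvatinib and 35.7% under combo had a UMI of at least 1 of these. Cells with either gene had 279.7 and 339 CPM of Tnfrsf4, against 115 and 218 CPM in cells with neither. For Tnfrsf9 the levels were 132 and 101 CPM, against 31.5 and 35.8 CPM. Both receptors were thus higher with Ikzf2 or Il2ra in each library, by 2.43 and 1.55 times for Tnfrsf4 and by 4.2 and 2.83 times for Tnfrsf9. Cd40lg went the other way under lenvatinib, with 95.3 CPM with Ikzf2 or Il2ra and 182 CPM without, and under combo the levels were 134 and 161 CPM with overlapping intervals.

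The comparison of libraries in CD4 T cells depended on this split. In cells with neither Ikzf2 nor Il2ra (202 and 326 cells), Tnfrsf4 was 1.89 times and Cd27 1.93 times as high under combo, both past the fold, with Cd27 at 36.9 CPM (26.5 to 50.03) and 71 CPM (59.8 to 83.8). The ratio of Tnfrsf9 was then 1.14, in place of 0.702 over all CD4 T cells. Cd28 stayed lower under combo, at 735 CPM (685 to 787) and 531 CPM (499.5 to 564), and Tnfsf8 was at 198 and 139.6 CPM. Icos was at 322 and 349 CPM with overlapping intervals. In cells with either gene, the ratio was 1.21 for Tnfrsf4 and 0.858 for Cd27. It was 1.07 there for Tnfsf8, 1.41 for Cd40lg and 1.01 for Cd226, against 0.705, 0.887 and 0.722 in cells with neither. Of these, intervals were apart for Cd40lg with either gene and for Tnfsf8 and Cd226 with neither, and otherwise overlapped. The lower Tnfsf8 of the whole CD4 T class was thus not seen in cells with either gene. Ikzf2 in the cells with either gene was at 774 and 263 CPM, and Il2ra at 98.6 and 71.4 CPM. Whether the absence of both UMIs left out Tregs to the same extent in each library was not tested. The share of all genes past the fold in cells with neither gene was not computed.

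**Figure D5:**
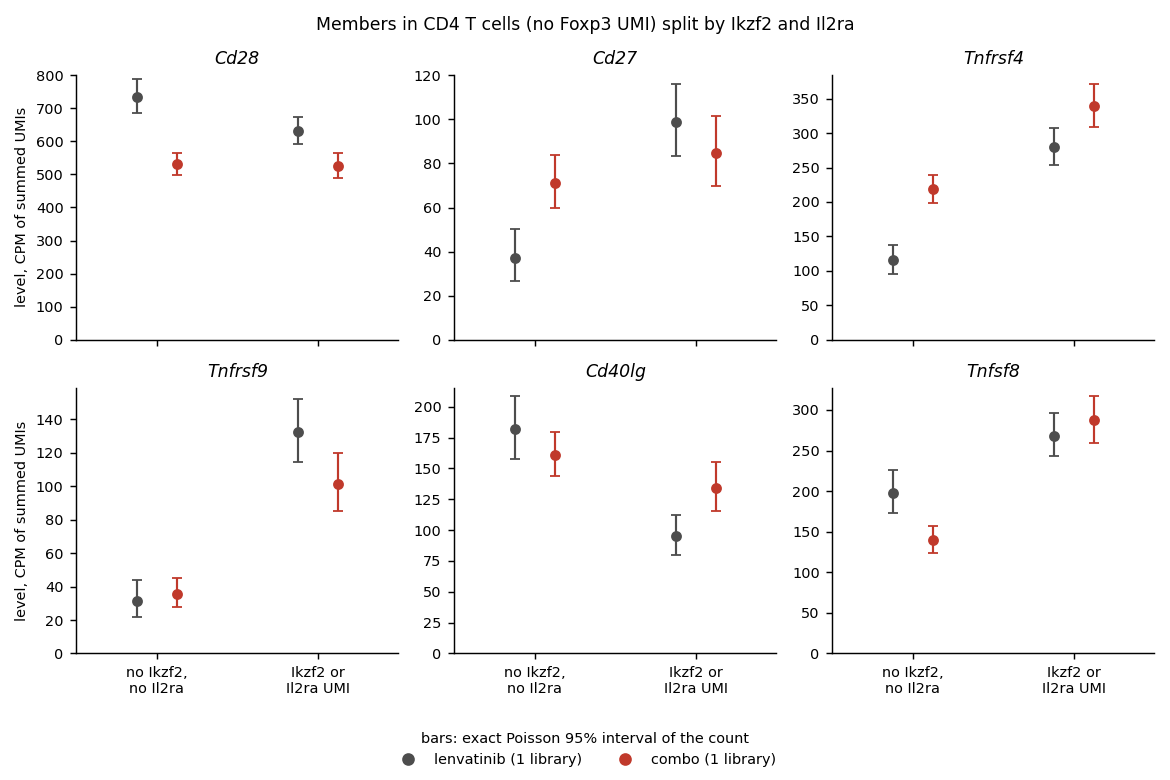
Level (CPM of summed UMIs) of 6 members in CD4 T cells with neither Ikzf2 nor Il2ra and in those with a UMI of either, for each library, with exact Poisson 95% intervals. Tnfrsf9 is at 31.5 and 35.8 CPM in the first subset and at 132 and 101 CPM in the second, and Tnfrsf4 in the first subset is 1.89 times as high under combo.

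Cells carried these genes in different numbers by class. After thinning to 2000 UMIs, Foxp3 cells had on average 2.88 of the 10 genes with a UMI under lenvatinib and 2.39 under combo, CD4 T cells 2.4 and 2.48, CD8 T cells 1.33 and 1.22, and NK cells 1.04 and 0.932. Neutrophils had 0.146 and 0.0626. Among Foxp3 cells with a Tnfrsf4 UMI, 59.1% under lenvatinib (182 of 308) also had Tnfrsf9, against 18.7% of those without (25 of 134). In the combo library the shares were 51.4% (19 of 37) and 24% (6 of 25). The same 2 receptors were found together in CD4 T cells at 22.3% against 8.4%, and at 11.7% against 5%. In CD8 T cells with Cd40lg, Icos was found in 9 of 18 and 12 of 24 cells, where 14.6% and 16% of the other CD8 T cells had it.

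The rest of the pathway was described by a list of 42 genes, made of ligands and partners, related receptors, competing receptors, and signaling genes. In CD8 T cells 37 reached 25 counts, 4 were past the fold upward under combo and 3 downward, near or below the shares of all genes there (9.93% and 13.6%). The upward ones were Ctla4 (82.8 and 164 CPM, ratio 1.98), which competes with CD28 for its ligands, Tigit (3.32 and 6.57 CPM, 1.98), and the CD28 ligands Cd86 (11 and 18.8 CPM, 1.72) and Cd80 (2.67 and 5 CPM, 1.87). The downward ones were Btla (14.8 and 7.76 CPM, 0.524), an inhibitory receptor, the ICOS ligand gene Icosl (4.36 and 2.55 CPM, 0.585), and the adaptor Traf3 (32.9 and 21.8 CPM, 0.663). Cd28 was thus lower and its competitor Ctla4 higher in the same class and library. Cd80, Cd86 and Icosl are ligands of antigen-presenting cells and lie at low levels here. The 4 monocyte and macrophage genes Csf1r, Lyz2, Adgre1 and C1qa, of which 3 were higher under combo and none was at 0, summed to 92.8 and 711 CPM in CD8 T cells, and their part in the Cd80 and Cd86 ratios was not tested.

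In CD4 T cells 35 of the 42 reached 25 counts, with 2 past the fold upward, where 5.55% of all genes were, Tnfrsf18 (197 and 298 CPM, 1.51), the gene of GITR, and Tigit, from 7 and 21 counts (2.33, counting interval 0.953 to 6.48). There were 9 downward, where 22.6% of all genes were, led by Tnfsf9 (0.546), the gene of 4-1BB ligand, Cd244a (0.578), Traf6 (0.579) and Icosl (0.593). In Foxp3 cells 35 reached the minimum, with Btla upward (37 and 10 counts, ratio 1.53, counting interval 0.678 to 3.13) and 14 downward, against 9.35% and 30.1% of all genes. The lowest ratios were those of Tnfrsf8, the gene of CD30, at 0.213 (counting interval, 0.0252 to 0.810) from 53 and 2 counts, and of Icosl, at 0.236 (0.00573 to 1.45) from 24 and 1 counts. They were followed by the NF-κB subunit Rel (442 and 145 CPM, 0.327) and the TNF receptor gene Tnfrsf1b (294 and 99.9 CPM, 0.34). CD30 and its ligand gene Tnfsf8 thus each had 3 counts or fewer in Foxp3 cells of the combo library. The 16 signaling genes had ratios below 1 for 16 of 16 in CD8 T cells, with a median of 0.749 where all genes had 0.921. In Foxp3 cells 15 of 16 did, with a median of 0.653 where all genes had 0.848. The other classes were similar. CD4 T, NK and B cells had 15 of 16, with medians of 0.782, 0.725 and 0.613, and dendritic cells 12 of 16, with 0.713. The medians of all genes there were 0.853, 0.921, 0.779 and 0.951. The share of all genes with a ratio below 1 was not computed.

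Dendritic cells are known to carry many ligands of these receptors. There, 30 of the 42 genes reached the minimum, with 2 past the fold upward and 9 downward, against 6.67% and 13.9% of all genes. Tnfsf9 was at 99 and 74.6 CPM, Cd86 at 93 and 68.3 CPM and Icosl at 45.2 and 19.3 CPM, of which Icosl alone was past the fold, at 0.428. The T cell receptors of the group in dendritic cells, Icos at 6.88 and 3.55 CPM, Cd27 at 11.2 and 5.53 CPM and Cd226 at 17.2 and 7.9 CPM, were low. Icos and Cd27 lay near or under their neutrophil levels of 4.33 and 4.4 CPM and of 12.4 and 15.7 CPM, and are read as background by CPM. Per cell, Icos had 0.0816 and 0.0549 UMIs in dendritic cells against 0.0156 and 0.035 in neutrophils. Cd27 had 0.133 and 0.0854 against 0.0448 and 0.125. Dendritic cells were deeper, with medians of 10739.5 and 13298 UMIs, and whether these counts are background was not tested. Cd226 lay above its neutrophil levels of 5.41 and 2.6 CPM. In B cells Icos was at 14 and 21.5 CPM, with a ratio of 1.53 and overlapping intervals. It was 1.03 when cells that met several definitions were kept in. Tnfrsf9 in B cells, at 11 and 2.94 CPM, lay at its neutrophil levels of 10.8 and 2.42 CPM and is read as background. Cd27 in B cells, at 24.1 and 15 CPM, had intervals that overlapped those of neutrophils in both libraries. Cd226, at 13 and 8.24 CPM, overlapped its neutrophil interval under lenvatinib but not under combo.

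The genes whose levels most resembled each member were found among 7690 genes over 12 points, which are 6 classes in each of only 2 libraries, by Pearson correlation of log2(CPM + 5). They are a description, since the points share libraries and cell types. Cd28 was close to Cd247 (r = 0.993) and Zap70 (0.976), and Icos was closest to Ctla4 (0.98), Rora (0.978) and Camk4 (0.972). Tnfrsf4 was closest to Smco4 (0.99), A630023P12Rik (0.985) and Izumo1r (0.981), Tnfrsf9 to Ppme1 (0.968), Ifrd1 (0.961) and C1qtnf6 (0.955), and Cd27 to Pglyrp2 (0.974), Hopx (0.972) and Tox (0.97). For Cd226 these were Rinl (0.979), Hcst (0.977) and D830025C05Rik (0.976), and for Cd40 they were Fgfr1op (0.977), H2-DMb2 (0.972) and Siglecg (0.967). The ligand Cd40lg was closest to Spry1 (0.944), Ramp3 (0.941) and Nebl (0.938), Tnfsf8 to Axin2 (0.94), Smap1 (0.923) and Shld1 (0.9), and Tnfsf11 to Hif1a (0.964), Tnfrsf25 (0.958) and Spry1 (0.955).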

How the data were processed

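For each library the authors deposited a matrix of UMI counts without normalization, in which every barcode held at least 500 UMIs. Per the labels, reads were mapped to mm10 with Cell Ranger 5.0.1, while the matrix header names 6.0.1. As in the study, cells were kept up to 6000 genes and 25% mitochondrial counts, which took out 308 lenvatinib and 376 combo cells. Classes were defined by raw UMIs of marker genes, without clustering, so class names differ in construction from those of the study. Counts were summed per class and library and given as CPM with exact Poisson intervals, and shares with exact Clopper-Pearson intervals (scipy 1.17.1, numpy 2.4.6, pandas 2.3.3, Python 3.11.15). A count of 0 was set to a floor of 3 counts in ratios. For shares, each cell was thinned to 2000 UMIs. Cells below that depth did not enter, which concerned 84 and 34 of the CD8 T, 14 and 6 of the CD4 T, 62 and 16 of the Foxp3, 170 and 14 of the NK, and 103 and 44 of the neutrophil cells. Doublets were called with Scrublet in scanpy 1.11.5 at an expected 6%, which marked 4.46% of lenvatinib and 2.76% of combo cells, and were removed only in an alternative. The steps were tested on simulated data.

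The members, gene lists and rules were chosen with earlier results of these data known. Named were the 10 members, the 4 pathway genes furthest past 1.5-fold in each direction in CD8 T, CD4 T and Foxp3 cells, and for each member the 3 genes of highest correlation, among genes of at least 20 CPM at 1 point and outside those that define classes. Pathway genes of dendritic cells, Tnfsf9, Cd86 and Icosl, were named after their values were seen. With 1 library per group, no p-value, standard error or test was computed. Alternatives covered the class definitions, cell filters, scaling, doublets, cycling cells and minimum count, and 3 more were added after the data were seen: without cells holding Siglech, without barcodes shared by the libraries, and with classes defined on thinned cells. Some planned results, among them a further split of T cells and 1 correlated gene, are not reported here, and CD8 T cells were split by Pdcd1 alone after the data were seen.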

Additional observations from a re-analysis of the deposited data

How the results depend on the processing

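Of 699 ratios of members recomputed under alternatives, 639 stayed within the counting interval of the reported ratio, 60 left it, and no ratio past the fold changed direction. The 639 include ratios that could not move, such as all 48 without a minimum count. Ratios of classes that an alternative did not touch are also among them. Inside the fold, some ratios changed direction. Tnfrsf4 in Foxp3 cells went from 0.794 to 1.12 with a Cd3e UMI. Tnfrsf9 in CD4 T cells went from 0.702 to 1.14 without Ikzf2 and Il2ra. The number of members past 1.5-fold, reported as 2 in CD8 T, 0 in CD4 T, 4 in Foxp3, 2 in NK, 5 in B and 4 in dendritic cells, moved by over 1.5 times as follows. With at least 2 UMIs of each defining gene it was 1 in CD8 T and 1 in CD4 T cells. With a mean of CPM over cells it was 1 in CD4 T and 3 in B cells. With cells of several definitions kept and NK cells defined by Ncr1 alone, it was 1 in CD8 T, 1 in NK and 7 in dendritic cells. It was 3 in B cells without called doublets, 1 in CD4 T cells without cycling cells, and 2 in CD4 T cells without Ikzf2 and Il2ra. Without a minimum count it was 1 in CD4 T, 9 in B and 8 in dendritic cells, where fewer than 25 counts then suffice. Of the alternatives chosen after seeing the data, leaving out Siglech cells gave 2 in dendritic cells, and classes defined on thinned cells, which hold fewer cells, gave 3 in CD4 T, 1 in NK and 2 in dendritic cells. In the remaining cases the cause was not tested. The class of highest level was kept for 20 of 20 pairs of gene and library with a mean of CPM over cells. No paired analysis was possible because each group had 1 library. Depth limits several classes: 5 members in dendritic and 4 in B cells did not reach 25 counts, and among the 78 Foxp3 cells of the combo library 4 of the 9 members counted rested on 14 counts or fewer.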

Other observations

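Gamma-delta T cells, defined by Cd3e and Trdc in cells of no other class (567 under lenvatinib and 323 under combo), carried most of these genes as well. Cd28 was at 269 CPM under lenvatinib and 182 CPM under combo, a ratio of 0.677 (95% counting interval, 0.607 to 0.754), between the ratios of CD8 T and NK cells. Cd226 was at 157 and 139.9 CPM, Icos at 143 and 161 CPM, and Tnfrsf9 at 60.6 and 73.5 CPM, each with overlapping intervals. Tnfsf11, at 25.3 and 26.1 CPM, lay above its CD8 T levels of 6.13 and 6.57 CPM. Tnfrsf4 was at 9.95 and 1.97 CPM, close to the neutrophil levels of 7.57 and 1.97 CPM.

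Cells that met the definitions of both CD8 T and Foxp3 cells were left out of the classes above (90 under lenvatinib and 19 under combo, with median depths of 7791 and 8636 UMIs). Their Tnfrsf4 level was 352 and 398 CPM, and their Tnfrsf9 level 189 and 187 CPM, between the levels of CD8 T and of Foxp3 cells in each library. Whether they are single cells that express Foxp3 and Cd8b1 or pairs of cells in a droplet was not tested.

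Of the 18 Tnfrsf4 UMIs in dendritic cells of the lenvatinib library, 11 sat in 75% of the 4 mature cells with Ccr7 and Fscn1, and 16 of the 60 Cd40 UMIs sat in 50% of them.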
